A study of Mus musculus with 8 samples.

Results

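The genes examined here encode the autophagy machinery, the cathepsin proteases and the lysosomal proton pump, together with lysosomal membrane and control genes. Of 23318 genes in the deposited files, 67 matched by symbol: those that begin with Atg and a digit, with Atp6v, or with Cts and 1 further letter (Ctsw left out), and 13 named genes, Lamp1, Lamp2, Tfeb, Tfe3, Becn1, Ulk1, Ulk2, Sqstm1, Map1lc3a, Map1lc3b, Gabarap, Gabarapl1 and Gabarapl2. A normalised expression value of 10 or more in at least 4 of the 8 libraries was required, which left 57 member genes, 55 of them at that level in all 8 libraries. RNA was extracted from epithelium of the mouse small intestine after flow sorting, and 4 libraries each were made from the CD24Mid fraction (also called CD24low by the series text) and the CD24Neg fraction. Both fractions were sorted with an antibody to CD24, a cell surface glycoprotein, and both had been depleted of CD45-positive cells and of cells bound by Ulex lectin, so neither stands for the whole epithelium. The labels give no strain, genotype, age, sex or treatment for either fraction, and they pair no library of 1 fraction with a library of the other. The series text calls the 4 libraries of a fraction biological replicates.

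In autophagy, a membrane grows around cytoplasmic cargo, closes and fuses with the lysosome. The lysosome is acidified by the V-ATPase, a rotary pump whose V1 domain hydrolyses ATP in the cytosol and whose V0 domain carries protons through the membrane, and cathepsins digest the delivered cargo in that acid. In the small intestine these genes are known for their part in the secretory granules of Paneth cells, in the turnover of cell contents and in digestion of absorbed material by enterocytes.

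Libraries held an estimated 17.4 to 19.5 M reads in CD24Mid against 12.5 to 20.6 M in CD24Neg, and 1 read was worth 0.586 to 0.701 value units in CD24Mid against 1.07 to 1.77 in CD24Neg. Cd24a, the sorted antigen, lay at 2246 to 3693 in CD24Mid against 287 to 563 in CD24Neg. All 7 epithelial markers were detected, with a summed value of 102556 to 136914 in CD24Mid against 160729 to 187347 in CD24Neg, and that difference rested on Vil1, a brush border protein: without it the other 6 summed to 95493 to 127718 against 103619 to 145133. Of the 7, Vil1, Krt8 and Cldn7 were called higher, Krt18 lower, and Epcam, Cdh1 and Krt19 were not called. The 9 absorptive enterocyte markers summed to 17653 to 30962 in CD24Mid against 455437 to 805322 in CD24Neg, and the 6 stem cell markers to 52830 to 70373 and 2181 to 6515. Goblet cell markers (7 genes) summed to 50923 to 77738 in CD24Mid against 183783 to 509129 in CD24Neg, with 5 called higher. Enteroendocrine markers (8 genes) went the other way, from 3845 to 8484 down to 1136 to 1653, with 6 called lower, as did B and plasma cell markers, from 4587 to 9104 down to 1325 to 1855, with all 5 tested called lower. Sums of Paneth, tuft, macrophage and dendritic cell, and fibroblast and endothelial markers overlapped between the fractions. Single genes of the first 3 lists went both ways, however. Of 7 Paneth markers tested 1 was called higher and 1 lower, of 4 tuft markers 1 and 1, and of 8 macrophage and dendritic cell markers 2 and 3. These stand beside 34.0% and 34.3% of all genes. Mitochondrially encoded genes took 8.03 to 9.10% of the value in CD24Mid and 28.3 to 37.4% in CD24Neg. T cell markers summed to 53.1 to 170 in CD24Mid, and to 6818 and 4972 in CD24Neg libraries 2 and 8 against 386 and 1102 in libraries 4 and 6, so these 2 libraries stood apart, although CD45-positive cells had been depleted in the sort. The part of these cell types and libraries in the results was not tested, but the count over all members is also given without both libraries.

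Of the 57 members, 46 were higher in CD24Neg (80.7%), 1 was lower (1.75%) and 10 did not pass an adjusted p of 0.05 in limma, a linear model of log2 values fitted to all genes. Over all 12906 genes tested, 34.0% were called higher and 34.3% lower. The median log2 fold change of the members, CD24Neg minus CD24Mid, was 0.66, against -0.02 over all genes, whose middle 50% ran from -0.79 to 0.71. In 46 members (80.7%) the CD24Mid and CD24Neg values were fully separate, as was so for 63.8% of all genes. A change beyond 2-fold was estimated for 17 of the 46 higher members, while 15 changed by less than 1.5-fold. When a change beyond 1.5-fold was required by the test, 20 members were higher and 0 lower in limma (also 0 lower at an unadjusted p under 0.05), beside 18.3% and 18.8% of all genes. Without CD24Neg libraries 2 and 8, 45 members were higher and 1 lower, beside 32.4% and 32.9% of all genes tested there. Ulk1 was then no longer called higher, and the lower gene was Atg16l2 in place of Atp6v1g2.

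**Figure D1:**
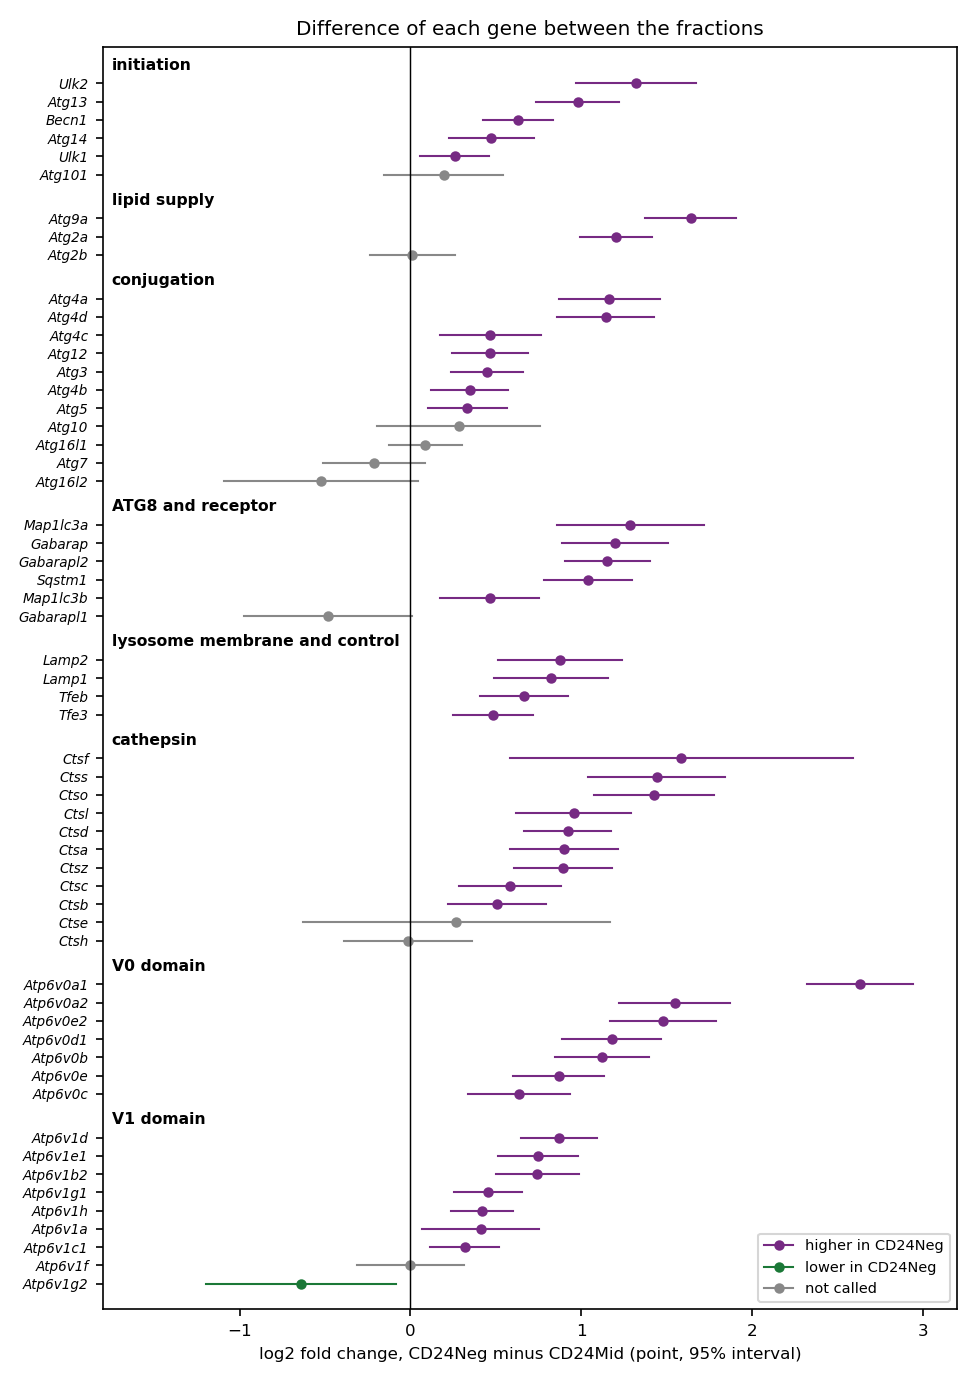
Log2 fold change of each of the 57 member genes (x axis, CD24Neg minus CD24Mid, on log2 of value plus 0.5), grouped by role on the y axis; points are limma estimates and lines their 95% intervals, with 4 libraries in each fraction. Most points lie to the right of 0: 46 genes were called higher, 1 lower and 10 not called, and Atp6v0a1 lies farthest right at 2.63.

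The number of members called depended on how libraries were put on 1 scale. Values were deposited on a scale where the median ratio of genes between libraries is nearly level, and on it the totals differ, from 11.4 to 12.2 M in CD24Mid against 21.0 to 22.4 M in CD24Neg. With library totals as the scale instead, counted after dropping the 20 genes of highest level, the median over all genes moved to -0.44 and that of the members to 0.24. Under this scaling 29 members were higher, 8 lower and 20 not called, beside 22.0% and 50.3% of all genes, and the share of all calls that were higher went from 49.8% to 30.4%. A total of 20 members kept a higher call under every alternative tried: Atg13, Ulk2, Atg2a, Atg9a, Atg4a, Atg4d, Map1lc3a, Gabarap, Gabarapl2, Sqstm1, Ctsd, Ctsl, Ctso, Ctss, Atp6v0a1, Atp6v0a2, Atp6v0b, Atp6v0d1, Atp6v0e2 and Atp6v1d. In bulk RNA of a sorted fraction, fewer cells of a type and less RNA of a gene per cell cannot be told apart.

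The V0 domain of the proton pump held the gene with the largest estimated change among the members, and all 7 of its subunit genes among the members were higher in CD24Neg, the median on the log2 scale being 1.18; under totals scaling 6 were higher and Atp6v0c was not called. Counts by role, here and below, stand beside 34.0% higher and 34.3% lower of all genes. Under totals scaling those shares were 22.0% and 50.3%. Tcirg1, which encodes a further form of subunit a but does not carry an Atp6v symbol, was measured too and was not called, with a log2 fold change of 0.01 (adjusted p = 0.958 in limma) that became -0.42 under totals scaling; it is named here after its values were seen. Values are listed here and below in the order of libraries 1, 3, 5 and 7 for CD24Mid and 2, 4, 6 and 8 for CD24Neg. Atp6v0a1, 1 of the large membrane subunits a that couple proton flow to rotation, read 619, 463, 437 and 508 in CD24Mid and 2758, 3058, 2923 and 3833 in CD24Neg. Its fractions did not overlap, and CD24Neg was 6.2-fold higher (95% interval 5.0 to 7.69, adjusted p = 3.31e-07). Atp6v0a2, the paralogue of the same subunit, read 2283, 1444, 1966 and 2025 in CD24Mid and 5692, 4848, 6020.0 and 5760.3 in CD24Neg. It too was higher without overlap, 2.92-fold (95% interval 2.33 to 3.66, adjusted p = 7.69e-06). Levels of different genes were set side by side only per kilobase of exon. The length used, here and below, joins all annotated exons of a gene. It can include exons of forms that are not expressed, so such levels and their order are approximate. On this scale mean values of Atp6v0a1 and Atp6v0a2 were 77.3 and 287 in CD24Mid and 479 and 829.6 in CD24Neg. Atp6v0a2 had the higher level per kilobase in both fractions.

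The other V0 members changed less, by 1.55-fold to 2.79-fold. Atp6v0e2, which encodes a form of the small subunit e, had values of 163, 165, 136 and 132 in CD24Mid and 417, 395, 496 and 357 in CD24Neg and was 2.79-fold higher. Its paralogue Atp6v0e had values of 674, 664, 491 and 549 in CD24Mid and 1089, 1158, 1071 and 989 in CD24Neg and was 1.82-fold higher. Neither gene had overlapping fractions. Atp6v0d1, the subunit that links the rotor to the V1 stalk, stood at 588, 495, 396 and 475 in CD24Mid and 1193, 1149, 1089 and 963 in CD24Neg, 2.26-fold higher. Proteolipids of the rotor ring are encoded by Atp6v0b and Atp6v0c. Atp6v0b was at 859, 779, 610.0 and 632 in CD24Mid and 1635, 1519, 1620.4 and 1434 in CD24Neg, 2.17-fold higher. For Atp6v0c the values were 2147, 2021, 1569.9 and 1679 in CD24Mid and 3169, 3186, 2612 and 2524 in CD24Neg, 1.55-fold higher, the smallest change of the 7, with an adjusted p of 0.00171 that became 0.169 under totals scaling. Atp6v0a4, the subunit a form known from kidney, stayed below the filter at 0 to 0.457 in CD24Mid against 0 to 1.35 in CD24Neg.

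Of the 9 measured V1 subunit genes, 7 were higher in CD24Neg, 1 was lower and 1 was not called, with a median log2 fold change of 0.42 that became -0.01 under totals scaling, where 3 were higher, 2 lower and 4 not called. All genes gave 34.0% higher and 34.3% lower, and 22.0% and 50.3% under totals scaling. The 3 genes higher under both scalings encode the central stalk, a peripheral stalk and the catalytic head. Atp6v1d, the rotor axle, read 281, 297, 301 and 272 in CD24Mid and 486, 541, 582 and 495 in CD24Neg and was 1.82-fold higher (adjusted p = 3.02e-05). Atp6v1e1, a subunit of the peripheral stalks, read 697, 638, 584 and 579.7 in CD24Mid and 1050.3, 1109, 1128 and 909 in CD24Neg and was 1.68-fold higher. Atp6v1b2, a nucleotide-binding subunit of the head, read 935, 953, 843 and 848 in CD24Mid and 1649, 1546, 1576 and 1240.0 in CD24Neg and was 1.67-fold higher. None of these 3 overlapped between fractions.

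A further 4 V1 genes were higher by less than 1.4-fold, and none of them passed under totals scaling, where the sign of Atp6v1a, Atp6v1c1 and Atp6v1h turned negative. Atp6v1a, the catalytic subunit, read 496, 509.6, 668 and 714 in CD24Mid and 657, 727, 914 and 862 in CD24Neg, the only called member whose fractions overlapped; its adjusted p was 0.0371, and the call was lost without CD24Mid library 1 or 3 or CD24Neg library 6 or 8. Atp6v1g1, of the peripheral stalks, read 668, 717, 656 and 629 in CD24Mid and 978, 868, 961 and 861 in CD24Neg, 1.37-fold higher. Atp6v1h, a regulator of ATP hydrolysis, read 519.9, 540.3, 501 and 527 in CD24Mid and 664, 705, 722 and 706 in CD24Neg, 1.34-fold higher. Atp6v1c1, which takes part in the reversible joining of V1 and V0, read 499, 496, 467 and 456 in CD24Mid and 593, 585, 655 and 558 in CD24Neg, 1.25-fold higher. The remaining pair went other ways. Atp6v1f, of the rotor, was called neither way at 689, 754, 535 and 524 in CD24Mid and 647, 703, 558 and 575 in CD24Neg (95% interval of the log2 fold change -0.32 to 0.31), and was called lower under totals scaling at -0.43. Atp6v1g2, the form of subunit G known from neurons, was the 1 lower member at 37.5, 40.0, 36.8 and 32.8 in CD24Mid and 29.9, 26.8, 18.5 and 19.9 in CD24Neg, 1.56-fold lower without overlap (adjusted p = 0.041). That call was lost when any 1 CD24Mid library, or CD24Neg library 6 or 8, or both 2 and 8, was left out.

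Summed over their members without correction for length, V0 genes took 1.22 to 1.52 times the value of V1 genes in the 4 CD24Mid libraries and 2.23 to 2.55 times in the 4 CD24Neg libraries. This ratio lies within a library and does not depend on the scaling. Without Atp6v0a1 and Atp6v0a2 it was 0.697 to 0.919 in CD24Mid against 0.968 to 1.11 in CD24Neg, so the fractions still did not overlap, although they lay closer. Separate fractions are common for ratios of 2 genes here: 64.3% of every pair of genes tested and 54.8% of every pair of members. Low V1 genes stayed out of these sums: Atp6v1c2 was at 1.29 to 3.27 in CD24Mid and listed at 0 in the 4 CD24Neg libraries, and Atp6v1b1, the form of subunit B known from kidney, at 0.397 to 0.497 and 0.

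Cathepsins gave 9 higher genes of 11 measured, 0 lower in limma (also 0 at an unadjusted p under 0.05) and 2 not called, with a median log2 fold change of 0.90; under totals scaling 7 were higher, Ctsh was lower and 3 were not called. Shares over all genes were 34.0% higher and 34.3% lower, and 22.0% and 50.3% under totals scaling. The cysteine protease Ctss, known for cutting the invariant chain in antigen presentation, read 800.1, 538, 504 and 621 in CD24Mid and 1441, 1676, 2183 and 1389.5 in CD24Neg. It was 2.71-fold higher without overlap (95% interval 2.06 to 3.58, adjusted p = 5.23e-05). Markers of macrophages and dendritic cells, which are known to express Ctss, summed over 12 genes to 476 to 854 in CD24Mid against 286 to 688 in CD24Neg, and the mean of 9 of these markers was higher in CD24Mid. Calls of the 8 markers tested went both ways: 2 were higher in CD24Neg, 3 lower and 3 not called, beside 34.0% higher and 34.3% lower of all genes. None of the 12 was at 0 in every library, and their part in the Ctss result was not tested. Ctso, a cysteine protease of wide expression, read 141, 148, 142 and 156 in CD24Mid and 292, 450.2, 471 and 389.8 in CD24Neg, 2.69-fold higher, and its fractions did not overlap.

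Cathepsins of general digestion also had separate fractions, with folds from 1.42 to 1.94. Ctsl, an endopeptidase, read 172, 132, 128 and 138 in CD24Mid and 248, 341, 271 and 249.7 in CD24Neg and was 1.94-fold higher. The aspartic protease Ctsd read 2091, 1877, 1555 and 1606 in CD24Mid and 3442, 3466, 3464 and 3043 in CD24Neg and was 1.89-fold higher. Ctsa, a carboxypeptidase that also protects neuraminidase and beta-galactosidase, read 1991, 1623, 1386 and 1403 in CD24Mid and 3053, 3259.6, 3143 and 2436 in CD24Neg and was 1.87-fold higher. Of these 3, Ctsl and Ctsd kept their call under every alternative tried, and Ctsa lost it in the test against 1.5-fold. Ctsz, a carboxypeptidase, read 2349.6, 2059.6, 1609 and 1859 in CD24Mid and 3546, 3762, 3995 and 3246 in CD24Neg and was 1.86-fold higher. Ctsc, which activates granule serine proteases, read 1076, 813, 882 and 1095 in CD24Mid and 1451, 1244, 1699.7 and 1382 in CD24Neg and was 1.5-fold higher. Ctsb, a cysteine protease that cuts both within and at the end of proteins, read 6992, 5819, 5248 and 5493 in CD24Mid and 8485, 8912, 8923 and 7083 in CD24Neg and was 1.42-fold higher. The calls of Ctsc and Ctsb were lost under totals scaling, at adjusted p of 0.292 and 0.535.

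Of the cathepsins near the filter, Ctsf, a cysteine protease, read 9.64, 13.2, 12 and 7.92 in CD24Mid and 22.8, 16.2, 45.3 and 66.4 in CD24Neg. Its 3.0-fold difference had a wide 95% interval of 1.5 to 6.02 (adjusted p = 0.00989), and the highest CD24Neg values were in libraries 8 and 6. Ctse, an aspartic protease of the endosome, reached the filter in 6 libraries, as Ctsf did, with values of 14.9, 10.03, 9.2 and 12.2 in CD24Mid and 12.4, 26.9, 8.73 and 12.4 in CD24Neg, and was not called (95% interval of the log2 fold change -0.63 to 1.17). Just outside the filter, with 3 libraries at 10 or more, was Ctsk, a collagen-degrading protease, at 1.21, 1.74, 0.403 and 0.987 in CD24Mid and 11.7, 9.49, 16.9 and 10.4 in CD24Neg. Well above the filter, the aminopeptidase Ctsh read 1087, 988, 776 and 789 in CD24Mid and 1091, 1028, 707 and 795 in CD24Neg and was not called. Its fractions overlapped, and the 95% interval of its log2 fold change ran from -0.39 to 0.36.

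Genes for proteins that hold cargo in the autophagosome were mostly higher: 5 of the 6 genes for ATG8-type modifiers and the receptor p62 were called higher in CD24Neg and 1 was not called, with a median log2 fold change of 1.1 (4 higher and 1 lower under totals scaling). Among all genes 34.0% were higher and 34.3% lower, and 22.0% and 50.3% under totals scaling. ATG8-type proteins are joined to lipid on the growing membrane and bind cargo receptors. Gabarap read 2146, 1995, 1530.3 and 1543 in CD24Mid and 4277, 4332, 4332 and 3485 in CD24Neg, 2.29-fold higher without overlap (adjusted p = 3.21e-05). Gabarapl2 read 558, 555, 487 and 476 in CD24Mid and 1216, 1173, 1269 and 969 in CD24Neg, 2.22-fold higher, also without overlap (adjusted p = 8.89e-06). The third GABARAP gene differed: Gabarapl1 read 149, 191, 129 and 137 in CD24Mid and 116, 151, 95.6 and 77.7 in CD24Neg, and its fractions overlapped (log2 fold change -0.48, 95% interval -0.98 to 0.01, adjusted p = 0.0733). Gabarapl1 was called lower under totals scaling (-0.91, adjusted p = 0.00342) and without CD24Neg library 4.

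Both LC3 genes measured were higher. Map1lc3a read 71, 82, 65.4 and 57.7 in CD24Mid and 181, 202, 177 and 123 in CD24Neg, 2.44-fold higher without overlap. Map1lc3b, the form most used as an autophagosome marker, read 933, 1011, 745 and 781 in CD24Mid and 1385, 1219, 1143 and 1027 in CD24Neg, 1.38-fold higher, and its call was lost under totals scaling (adjusted p = 0.815). Sqstm1, the receptor p62 that is itself degraded by autophagy, read 1152, 1056, 915 and 965 in CD24Mid and 2126, 2454, 1975 and 1858 in CD24Neg, 2.05-fold higher without overlap (adjusted p = 2.43e-05). Mrnip, a gene on the opposite strand, shares 17.3% of the exon bases of Sqstm1 and had mean values of 62.6 in CD24Mid and 11.0 in CD24Neg. Whether counting used strand is not given, so it is not known if reads of such pairs were told apart.

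Genes that start the autophagosome were higher in 5 of 6 cases, with a median log2 fold change of 0.55 (3 of 6 under totals scaling). The share higher over all genes was 34.0%, and 22.0% under totals scaling. Ulk2 and Ulk1 encode the kinases that start the process on nutrient signals. Ulk2 read 170.4, 162, 176 and 201 in CD24Mid and 353, 463, 579.6 and 405 in CD24Neg, 2.5-fold higher without overlap (adjusted p = 4e-05). Ulk1 read 432, 517, 471 and 457 in CD24Mid and 557, 563, 559.7 and 558 in CD24Neg, 1.2-fold higher (adjusted p = 0.026), a call lost under totals scaling, where its sign turned, and without CD24Mid library 1, 5 or 7 or CD24Neg library 4. Atg13, a partner in the kinase complex, read 541, 490.5, 408 and 428 in CD24Mid and 921, 883, 881 and 979.7 in CD24Neg, 1.97-fold higher without overlap. Atg101, which stabilises Atg13, read 314, 329.7, 209.6 and 239.9 in CD24Mid and 308, 329, 280.1 and 315 in CD24Neg and was not called. Becn1, of the lipid kinase complex that marks the growth site, read 1941, 1855, 1726 and 1626 in CD24Mid and 2793, 2768, 2904 and 2586 in CD24Neg, 1.55-fold higher. Cntd1 overlaps 43.9% of its exon bases on the opposite strand and had mean values of 39.1 in CD24Mid and 12.4 in CD24Neg. Atg14, which directs that complex to autophagy, read 198, 169, 196 and 203 in CD24Mid and 270.2, 258, 255 and 279.6 in CD24Neg, 1.39-fold higher, and was not called under totals scaling.

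Membrane supply was split between paralogues. Atg9a, a scramblase carried on small vesicles, read 795, 575, 585 and 663 in CD24Mid and 1954, 2253, 2009 and 1906 in CD24Neg. It was 3.12-fold higher without overlap (95% interval 2.59 to 3.75, adjusted p = 1.55e-06). Atg2a, a lipid transfer protein, read 708, 622, 661 and 616 in CD24Mid and 1414, 1609, 1374 and 1614 in CD24Neg, 2.3-fold higher without overlap. Its paralogue Atg2b read 728, 696, 913 and 891 in CD24Mid and 852, 757, 816 and 808 in CD24Neg and was not called (95% interval of the log2 fold change -0.24 to 0.26); it was called lower under totals scaling at -0.42. Atg9b, the paralogue of Atg9a, stayed below the filter, at 0 to 3.31 in CD24Mid against 0.617 to 7.32 in CD24Neg.

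The 11 genes that process and conjugate ATG8-type proteins comprised 7 higher, 0 lower in limma (also 0 at an unadjusted p under 0.05) and 4 not called, with a median log2 fold change of 0.35 that became -0.08 under totals scaling (2 higher, 3 lower, 6 not called). For all genes the shares were 34.0% higher and 34.3% lower, and 22.0% and 50.3% under totals scaling. The 2 that were higher under both scalings are ATG4 proteases, which cut ATG8-type proteins before and after their use. Atg4a read 95.4, 88.8, 93.8 and 106 in CD24Mid and 192, 205, 236 and 230.1 in CD24Neg, 2.24-fold higher (adjusted p = 2.84e-05). Atg4d read 899, 747, 655 and 618 in CD24Mid and 1752, 1479, 1638 and 1523 in CD24Neg, 2.21-fold higher (adjusted p = 2.4e-05); Kri1, opposite to 19.3% of its exon bases, had mean values of 433 in CD24Mid and 197 in CD24Neg. Neither protease overlapped between fractions. Atg4b read 662, 626, 626 and 527 in CD24Mid and 749, 721, 831 and 796 in CD24Neg, 1.27-fold higher. Atg4c read 211, 224, 212 and 229 in CD24Mid and 247, 327, 359.8 and 289.5 in CD24Neg, 1.38-fold higher.

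Conjugating enzymes proper showed small differences or none that passed. Atg3, the E2-like enzyme for ATG8-type proteins, read 431, 414, 442 and 431 in CD24Mid and 557, 553, 667 and 573 in CD24Neg, 1.36-fold higher. Atg12, a modifier, read 427, 456, 448 and 484 in CD24Mid and 604, 638, 709 and 561 in CD24Neg, 1.38-fold higher, and Atg5, its conjugation partner, read 455, 447, 457 and 468 in CD24Mid and 507, 631, 638 and 536 in CD24Neg, 1.26-fold higher. These 3, with Atg4b and Atg4c, had separate fractions, lost their calls under totals scaling, and turned sign there for Atg4b and Atg5. Atg7, the E1-like enzyme that activates both systems, read 363, 417, 342 and 329 in CD24Mid and 367, 338, 267 and 283 in CD24Neg and was not called (log2 fold change -0.21, 95% interval -0.51 to 0.08). Atg10, the E2-like enzyme for Atg12, read 35.6, 49.3, 41.1 and 44.7 in CD24Mid and 49.5, 55, 41.5 and 62.7 in CD24Neg and was not called. Atg16l1, the scaffold that places conjugation on the membrane, read 522, 479.5, 545 and 484 in CD24Mid and 530.5, 504, 527 and 598 in CD24Neg, and its 95% interval ran from -0.12 to 0.30. Atg16l2, its paralogue, read 59.3, 75.7, 61.3 and 51.4 in CD24Mid and 64.3, 34.6, 33.2 and 44.1 in CD24Neg (95% interval -1.09 to 0.04). The fractions of all 4 overlapped, and under totals scaling Atg7, Atg16l1 and Atg16l2 were called lower, at -0.64, -0.34 and -0.95.

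**Figure D2:**
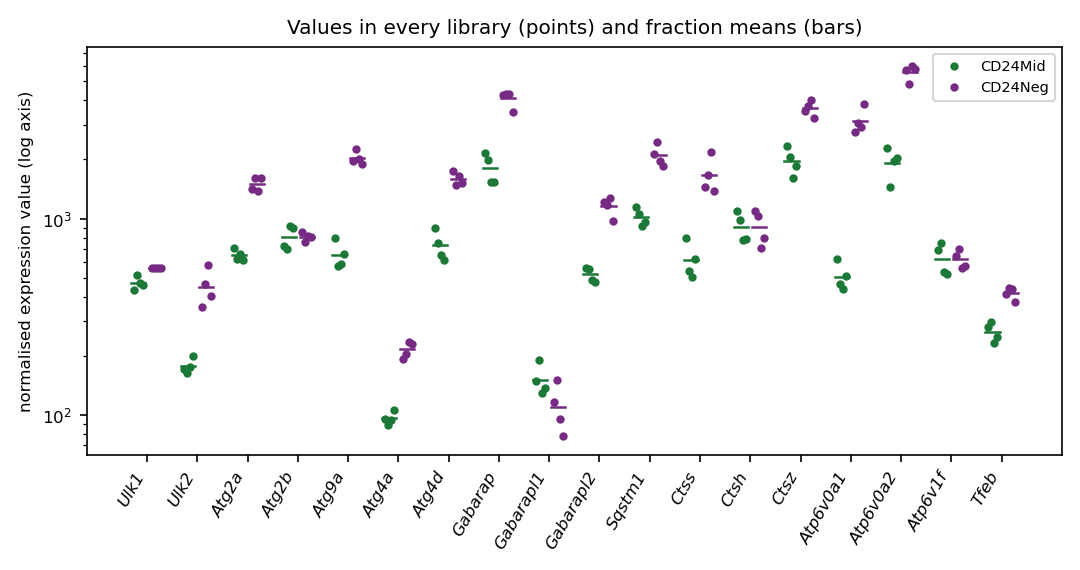
Normalised expression values (y axis, log scale) of 18 members in each CD24Mid (green) and CD24Neg (purple) library; points are libraries and bars fraction means. Atp6v0a1 lies at 437 to 619 in CD24Mid against 2758 to 3833 in CD24Neg, whereas the points of Atg2b, Gabarapl1, Ctsh and Atp6v1f overlap.

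All 4 genes of the lysosomal membrane and its transcriptional control were higher (median log2 fold change 0.74); Lamp1 and Lamp2 also passed under totals scaling, Tfeb and Tfe3 did not. Lamp1, a main glycoprotein of the lysosomal membrane, read 4418, 4143, 3717 and 3842 in CD24Mid and 6399, 8462, 8466 and 5588 in CD24Neg, 1.77-fold higher. Lamp2, needed for fusion with autophagosomes and for chaperone-mediated autophagy, read 1498, 1448, 1699 and 1786 in CD24Mid and 2291, 3071, 3977 and 2646 in CD24Neg, 1.83-fold higher. The CD24Neg libraries of both genes spread widely but lay above the CD24Mid range. Tfeb, a transcription factor of lysosomal and autophagy genes, read 279, 296, 232 and 249.8 in CD24Mid and 413, 445, 437 and 375 in CD24Neg, 1.58-fold higher (adjusted p = 0.000511, and 0.0661 under totals scaling). Tfe3, a related factor, read 371, 375, 363 and 375 in CD24Mid and 563, 536, 551 and 435 in CD24Neg, 1.4-fold higher (adjusted p = 0.00224, and 0.628 under totals scaling).

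TFEB and TFE3 are known to bind the E-box core CACGTG, above all within the palindrome TCACGTGA, so the members' promoters were searched for both. Promoters of 250 bases before to 50 bases after the start (RefSeq, GRCm38.p6) were matched for 45 of the 57 members, which gave 54 promoters. TCACGTGA, which reads the same on both strands and contains the core, was in 6 of 54 (11.1%), against 0.974% of all 32851 promoters. CACGTG, also the same on both strands, was in 13 of 54 (24.1%), against 7.15% of all promoters. Both motifs were picked as those of factors already known for lysosomal and autophagy genes, so the contrast is not independent support. The comparison promoters belong to 27025 genes, whether or not these were tested here. Of the 13 genes with the core, 12 were higher in CD24Neg, beside 46 of all 57 members, and Atg7 was not called; a match describes the letters and is neither a shown binding site nor a cause. The 150 bases before the start follow for 6 of these 13 genes, 5′ to 3′ on the gene's own strand and with the core in capitals. These genes were picked because TCACGTGA, or 2 or more cores, lay wholly within the 150 bases. All 6 were called higher in CD24Neg, and Atg7, with 1 core there, was left out by that rule. On the plus strand lie Atg3 (chr16:45158679-45158828), Ctsa (chr2:164833623-164833772) and Lamp1 (chr8:13159011-13159160). On the minus strand lie Atp6v0b (chr4:117887330-117887479), Atp6v1a (chr16:44139260-44139409) and Ctsd (chr7:142387828-142387977).
Atg3: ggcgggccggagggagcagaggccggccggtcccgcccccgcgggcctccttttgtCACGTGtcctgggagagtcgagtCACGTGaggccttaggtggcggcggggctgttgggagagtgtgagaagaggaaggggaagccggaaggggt
Atp6v0b: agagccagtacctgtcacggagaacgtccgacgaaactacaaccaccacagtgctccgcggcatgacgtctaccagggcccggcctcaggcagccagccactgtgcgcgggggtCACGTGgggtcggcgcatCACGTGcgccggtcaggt
Atp6v1a: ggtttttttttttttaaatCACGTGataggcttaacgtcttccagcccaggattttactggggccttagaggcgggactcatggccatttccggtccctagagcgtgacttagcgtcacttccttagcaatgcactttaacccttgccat
Ctsa: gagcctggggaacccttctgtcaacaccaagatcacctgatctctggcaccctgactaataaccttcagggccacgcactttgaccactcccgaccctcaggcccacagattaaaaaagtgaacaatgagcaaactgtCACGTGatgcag
Ctsd: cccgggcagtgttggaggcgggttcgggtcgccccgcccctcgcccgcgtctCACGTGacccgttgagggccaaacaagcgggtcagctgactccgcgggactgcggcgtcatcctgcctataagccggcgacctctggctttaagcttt
Lamp1: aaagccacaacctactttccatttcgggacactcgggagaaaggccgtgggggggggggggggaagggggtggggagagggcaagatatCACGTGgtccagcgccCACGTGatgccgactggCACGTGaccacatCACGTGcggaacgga
Lamp1 has 4 cores within its 150 bases, Atg3 and Atp6v0b have 2 each, and the other 3 genes have 1.

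The question whether paralogues that can fill the same place in a complex changed alike was put to ratios within a library, which no scaling can alter. Of 26 pairs listed, 18 had both genes past the filter, and 13 of the 18 differed between the fractions at an adjusted p of 0.0396 over the 18 pairs (exact two-sided permutation p = 0.0286, the smallest that 4 against 4 unpaired libraries allow). The test took the libraries as unpaired, since the labels state no pairing. If they were matched, no pair could pass such a test. In these 13 pairs (72.2%) the fractions did not overlap, beside 64.3% of every pair that can be formed from the genes tested and 54.8% of every pair of members. A count near these shares is not a result about paralogues, so the pairs are given as single measurements. The ratio of Atp6v0a1 to Atp6v0a2 was 0.223 to 0.321 in CD24Mid against 0.485 to 0.665 in CD24Neg. That of Atp6v0e to Atp6v0e2 went the other way, toward the e2 form, from 3.62 to 4.17 in CD24Mid to 2.16 to 2.93 in CD24Neg. Atp6v1g1 to Atp6v1g2 stood at 17.8 to 19.2 and 32.4 to 52.0.

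Autophagy genes gave the 3 largest shifts among these ratios. Gabarap to Gabarapl1 was 10.5 to 14.4 in CD24Mid against 28.7 to 45.3 in CD24Neg, a difference of 1.68 on the log2 scale. Gabarapl1 to Gabarapl2 fell by 1.64 on that scale. Gabarap to Gabarapl2, in contrast, was 3.14 to 3.85 and 3.41 to 3.69, a log2 difference of 0.05 (exact permutation p = 0.543). Atg2a to Atg2b was below 1 in each CD24Mid library, at 0.691 to 0.973, and above it in each CD24Neg library, at 1.66 to 2.12. Per kilobase of joined exon Atg2a was the higher in both fractions, at 84.7 against 59.98 in CD24Mid and 195 against 60.1 in CD24Neg. In CD24Mid that order rests on the annotated lengths, 7693 bases for Atg2a and 13456 for Atg2b. Ulk1 to Ulk2 was 2.28 to 3.18 in CD24Mid against 0.966 to 1.58 in CD24Neg. Map1lc3a to Map1lc3b rose from 0.0739 to 0.0879 in CD24Mid to 0.12 to 0.165 in CD24Neg, and per kilobase the mean levels were 58.4 and 115 in CD24Mid and 145 and 159 in CD24Neg.

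Each of the protease pairs shifted by less than 1 on the log2 scale. Atg4a to Atg4b changed by 0.82 on the log2 scale, Atg4b to Atg4d by -0.80 and Atg4c to Atg4d by -0.67. Ctsh to Ctsl was 5.71 to 7.48 in CD24Mid against 2.60 to 4.40 in CD24Neg, and Ctsb to Ctsl 39.7 to 44.0 and 26.2 to 34.2. For 5 pairs the difference did not pass: Gabarap to Gabarapl2, Lamp1 to Lamp2 (-0.05, exact permutation p = 0.514), and Tfeb to Tfe3 (0.18), Atg16l1 to Atg16l2 (0.61) and Ctsd to Ctse (0.65), each with an exact permutation p of 0.114. Such p-values do not show that these pairs changed alike.

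**Figure D3:**
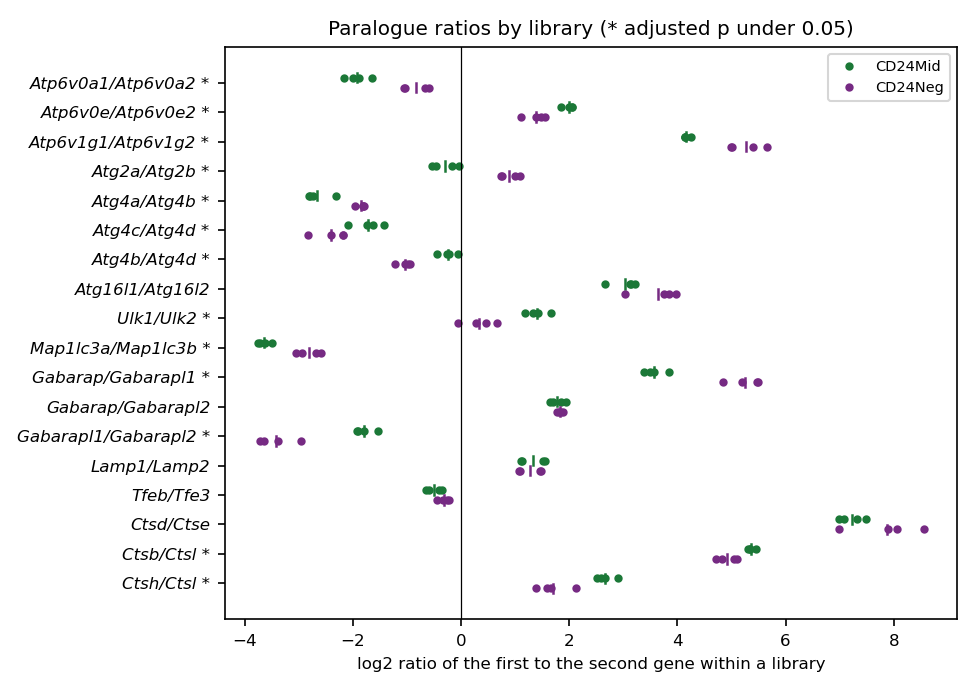
Log2 ratio of 2 paralogous genes within each library (x axis) for 18 pairs (y axis) in CD24Mid (green) and CD24Neg (purple); points are libraries, bars fraction means, and a star marks an adjusted p under 0.05 in the exact permutation test. In 13 pairs the colours separate, and Atg2a/Atg2b crosses 0, from a mean of -0.30 in CD24Mid to 0.89 in CD24Neg.

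Levels per kilobase of exon put Lamp1, Ctsz and Gabarap first in both fractions. In CD24Mid the highest means were those of Lamp1 (1507), Ctsz (1367), Gabarap (978) and Ctsb (973). In CD24Neg Lamp1 (2702), Ctsz (2524) and Gabarap (2227) led again, followed by Ctsd (1427) and Ctsb (1380.0). The 57 members together took 0.421% of the value of nuclear genes in CD24Mid and 0.546% in CD24Neg. By role, V0 genes went from 0.0582% to 0.107% and cathepsins from 0.131% to 0.156%, while V1 genes stood at 0.0442% and 0.0454% and conjugation genes at 0.0370% and 0.0381%. The annotation places another gene over 17.3% to 43.9% of the exon bases of Becn1, Ctsd, Atg9a, Gabarapl1, Ctsl, Atg4d and Sqstm1. For Ctsd, Atg9a, Gabarapl1 and Ctsl that gene has no value among those deposited. For Becn1, Atg4d and Sqstm1 it has its own value, given above. Whether reads of both genes were separated is not known, so the values of these 7 members are less certain.

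Genes around the members, from lists drawn up by function, gave mixed counts. Over all genes tested, 34.0% were higher and 34.3% lower, and 22.0% and 50.3% under totals scaling. Counts near these shares, here and below, are not a result about a list. Of 24 further autophagy machinery genes 16 were higher and 2 lower (median log2 fold change 0.58; 11 and 8 under totals scaling). Vmp1, an endoplasmic reticulum scramblase that works with Atg2 proteins and Atg9a, read 1693, 1360.4, 1488 and 1639 in CD24Mid and 4384, 5477, 6226 and 4624 in CD24Neg, 3.33-fold higher. Zfyve1, a marker of the site where the membrane forms, was 3.18-fold higher, Trp53inp2, which binds ATG8-type proteins, 3.04-fold and Vamp8, of the fusion machinery, 2.8-fold. Wipi1, which binds the lipid made by the Becn1 complex, was 2.2-fold lower. Of 16 further autophagy receptors 12 were higher and 2 lower (median 0.63; 5 and 3 under totals scaling). Optn, a receptor for ubiquitin-tagged cargo, read 594, 514, 434 and 511 in CD24Mid and 2958, 3631, 4223 and 3683 in CD24Neg, 7.04-fold higher. Of the genes for mitochondrial cargo, Bnip3 was 5.02-fold and Pink1 2.96-fold higher, whereas Fundc1 was 1.54-fold lower.

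Other lysosomal genes were counted in the same way, and their difference from the cathepsins was not tested. Of 39 other hydrolases 13 were higher and 11 lower (median 0.20), near the 34.0% and 34.3% of all genes. Under totals scaling 11 were higher and 17 lower, beside 22.0% and 50.3% of all genes. Lipa, the acid lipase that frees cholesterol and fatty acids, read 56, 49, 49.8 and 59.9 in CD24Mid and 731, 1587, 1214 and 721 in CD24Neg, 18.6-fold higher. Neu1, the sialidase that Ctsa protects, was 4.57-fold higher and Arsa, a sulfatase, 2.85-fold, while the sulfatase Arsb was 2.28-fold lower. Of 22 lysosomal membrane genes 15 were higher and 1 lower (median 0.64; 9 and 4 under totals scaling), led by the amino acid exporter Slc36a1 at 5.56-fold and the ion channel gene Tpcn1 at 3.64-fold. Of 6 cathepsin inhibitors 5 were higher and 1 was not called (median 1.37; 4 higher and 1 lower under totals scaling). The cystatin Cst6 read 168, 88.6, 105 and 80.3 in CD24Mid and 1219, 1429.9, 1563 and 1069 in CD24Neg, 12.3-fold higher. Serpinb1a and Serpinb6a, serpins of the cell interior, were 2.5-fold and 2.68-fold higher. Serpins act mainly on serine proteases, and whether they inhibit the cathepsins measured here was not tested. Serpina3g read 4.64, 2.22, 4.35 and 13.6 in CD24Mid and 104, 7.61, 19.98 and 78.4 in CD24Neg, highest in the libraries with most T cell markers.

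Supply, assembly and nutrient signalling genes had median log2 fold changes of 0.09 to 0.22, beside -0.02 over all genes. Calls over all genes were 34.0% higher and 34.3% lower, and 22.0% and 50.3% under totals scaling. Of 18 genes that deliver enzymes to the lysosome 8 were higher and 3 lower (median 0.22; 3 and 8 under totals scaling). M6pr, a mannose 6-phosphate receptor that sorts new hydrolases, read 2627, 2577, 2614 and 2638 in CD24Mid and 1659, 1728, 1722 and 1645 in CD24Neg, 1.55-fold lower without overlap. The sorting adaptors Gga1 and Gga2 went apart, 1.72-fold higher and 3.64-fold lower. Of 13 proton pump partners and assembly factors 4 were higher and 2 lower (median 0.15; 1 and 5 under totals scaling), and Ccdc115, a factor for V0 assembly, was 1.97-fold lower at 333, 326, 304 and 265 in CD24Mid and 183, 177, 122 and 147 in CD24Neg. Of 25 nutrient-sensing genes 7 were higher and 2 lower (median 0.09; 2 and 15 under totals scaling). Among them Flcn, which acts on the Rag proteins upstream of Tfeb and Tfe3, read 273, 312, 240.0 and 275 in CD24Mid and 665, 739, 505 and 829 in CD24Neg, 2.46-fold higher. Depdc5, of a complex that restrains nutrient signalling, was 1.58-fold lower, whereas Nprl2, of the same complex, was 1.71-fold higher.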

How the data were processed

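Total RNA (miRNeasy) of sorted cells was sequenced after TruSeq RNA preparation, per the labels' protocols. The signal that the authors deposited is 1 gene-level normalised expression value per Ensembl gene and library. Alignment with Bowtie 0.12.8 and the build NCBIM37 are named, per the submitters' processing notes. None of the estimator's version, the annotation release, the scaling method or the use of strand is given in the sources used here. Symbols came from GENCODE M21 and matched 21223 of 23318 identifiers; exon lengths and overlaps came from the same annotation. The low values lay on even steps, read as the value of 1 read, but whole reads could not be recovered for nearly all genes. The design foresaw counts or values without counts, and the second branch was used.

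Genes at 10 or more in at least 4 libraries were kept and each library was centred by its median ratio. The model was fitted to log2(value + 0.5) with limma 3.58.1 under R 4.3.3 (trend, robust, 6 residual degrees of freedom, no covariates), with Benjamini-Hochberg adjustment over 12906 genes and a threshold of 0.05. Folds are on this scale and understate changes of low genes. P-values weigh the difference between the fractions against the spread of libraries within them, with the libraries taken as unpaired. The fit was tested on simulated data. For ratios, exact permutation tests (two-sided; scipy 1.17.1) were used. Members and lists were chosen with earlier results of these data known. Any member could be named, with values in every library for called members without overlap and those that differ from a paralogue; of each pathway list, up to 4 genes by adjusted p were eligible, plus 1 in a direction these miss. Alternatives were no centring, quantile normalization, totals scaling without the 20 most abundant genes, pseudocounts of 0.1 and 1, other filters, limma without trend, a test against 1.5-fold and leaving out each library. Leaving out CD24Neg libraries 2 and 8 together and a block of adjacent title numbers were chosen after seeing the data.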

Additional observations from a re-analysis of the deposited data

Results flagged for a closer look

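In 3 of 114 sets of 4 values (57 members in 2 fractions), 1 library lay apart from the other 3 by a gap above Dixon's 95% critical share of the range. Chance gives about 1 in 20 such sets. Gabarap, the ATG8-type modifier, was lowest in CD24Neg library 8 at 3485.1, while the other 3 CD24Neg libraries lay between 4277 and 4332; all 4 remained above the highest CD24Mid value of 2146. Ctsd, the aspartic protease, was also lowest in CD24Neg library 8 at 3043, against 3442 to 3466 in the others and at most 2091 in CD24Mid. Atg3, the E2-like enzyme, was highest in CD24Neg library 6 at 667, against 553 to 573 in the others. CD24Neg library 8 had the highest mitochondrially encoded share, 37.4%, and the second highest sum of T cell markers, 4972; their part in its values was not tested.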

How the results depend on the processing

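The title numbers of CD24Mid (1, 3, 5 and 7) and CD24Neg (2, 4, 6 and 8) share no value, and the labels state no pairing. Over the genes tested, deviations from the fraction means correlated at 0.282 to 0.332 between libraries of adjacent numbers (1 and 2, 3 and 4, 5 and 6, 7 and 8) and at -0.26 to 0.033 between all others, a hint from the data, not the design. With adjacent numbers as a replicate block, chosen after seeing the data, 46 members were higher, the same genes, and 2 lower. Of all genes 36.7% were higher and 37% lower with the block. Gabarapl1 was the lower member added (adjusted p = 0.0164 in limma, against 0.0733 without the block). The adjusted p of Atp6v1a went from 0.0371 to 0.00205. The 46 higher members became 29 under totals scaling and 20 in the test against 1.5-fold, and the count stayed within 1.5 times of 46 under the other alternatives. The 1 lower member became 8 under totals scaling, 0 under quantile normalization (also 0 at an unadjusted p under 0.05 in limma), 0 in the test against 1.5-fold and 0 to 2 with 1 library left out. Over all genes, 4386 higher calls became 2842 under totals scaling and 2360 against 1.5-fold, and 4424 lower calls became 2430 against 1.5-fold. The cause was not tested.

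Under totals scaling the log2 fold change of 11 members turned negative. Of these, 8 were called under at least 1 of the scalings: Atg16l1 (-0.34), Atg2b (-0.42), Atg4b (-0.081), Atg5 (-0.094), Atp6v1a (-0.017), Atp6v1c1 (-0.11), Atp6v1h (-0.0064) and Ulk1 (-0.17). Atg10 (-0.14), Atg101 (-0.23) and Ctse (-0.14) were called under neither. With 1 library left out, 2 of the 46 higher members lost their call, Atp6v1a and Ulk1. The 13 paralogue pairs stayed 13 with either pseudocount. With a library left out the permutation test cannot reach 0.05. Nor could it if adjacent numbers were taken as matched libraries, so the ratios were not tested in that way. The promoter share of 11.1% for TCACGTGA became 24.1% for the shorter CACGTG. At a value of 10, a gene rests on 14.3 to 17.1 reads in CD24Mid and 5.6 to 9.3 in CD24Neg, so low values such as those of Ctse and Ctsf are less precise in CD24Neg.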
